A study of Rattus norvegicus with 25 samples.

Results

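The KDEL receptor genes Kdelr1, Kdelr2 and Kdelr3 were followed in McArdle-RH7777 cells, a rat hepatoma line, that stably expressed different forms of the GTPase Sar1. Each gene was read by the probe set whose only gene symbol was that of the receptor, which gave 3 probe sets among the 31042 tested and 3 of the 14217 genes named. Kdelr1 was read by 1371514_at, Kdelr2 by 1371780_at and Kdelr3 by 1372870_at, so no receptor had a probe set to check it against. RefSeq also lists a pseudogene of Kdelr1, Kdelr1-ps1, and whether the Kdelr1 probes bind its sequence was not tested.

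KDEL receptors are membrane proteins of the early Golgi that return escaped proteins of the endoplasmic reticulum (ER). They bind the KDEL-like tail of chaperones and folding enzymes in the mildly acidic Golgi, travel back in COPI-coated vesicles, and release the cargo at the neutral pH of the ER. COPII vesicles, whose coat is assembled by Sar1, run in the opposite direction, and in secretory cells such as hepatocytes these routes balance each other. The 3 paralogs share this activity, and transcripts of Kdelr2 and Kdelr3 are known to respond to ER stress.

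The series comprised 25 Affymetrix rat genome arrays from 7 stable lines, each grown from a clone picked after transfection. There were 2 control lines with the empty vector (2 and 3 arrays), 1 line with human Sar1A-FLAG (4 arrays), 2 lines with human Sar1B-FLAG (4 arrays each) and 2 lines with Sar1B:H79G-FLAG (4 arrays each), a form of Sar1B that cannot hydrolyse GTP. All lines, the controls included, carried the tetracycline repressor, were kept under blasticidin and Zeocin, and received 1 µg/ml tetracycline for 24 h. The arrays of a line are technical replicates per the study's methods, so each line counted once, and n below is the number of lines.

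The promoter windows of Kdelr1 and Kdelr3 are shown because Kdelr3 was called higher in Sar1B:H79G lines and Kdelr1 was not, and because windows were matched for these 2 of the 3 receptors. Each runs from 250 bases before to 50 bases after the transcription start in RefSeq's GRCr8 assembly, 5′ to 3′ on the plus strand. Capitals mark CCACG on either strand (CGTGG on the strand shown), the part of the ER stress response element that ATF6 and XBP1 contact. The Kdelr1 window lies at chr1:105483451-105483750 and the Kdelr3 window at chr7:112959382-112959681.
Kdelr1: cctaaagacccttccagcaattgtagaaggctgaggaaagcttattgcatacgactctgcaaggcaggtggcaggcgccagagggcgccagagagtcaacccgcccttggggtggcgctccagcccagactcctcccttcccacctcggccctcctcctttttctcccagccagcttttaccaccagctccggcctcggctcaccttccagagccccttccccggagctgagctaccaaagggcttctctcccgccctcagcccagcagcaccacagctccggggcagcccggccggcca
Kdelr3: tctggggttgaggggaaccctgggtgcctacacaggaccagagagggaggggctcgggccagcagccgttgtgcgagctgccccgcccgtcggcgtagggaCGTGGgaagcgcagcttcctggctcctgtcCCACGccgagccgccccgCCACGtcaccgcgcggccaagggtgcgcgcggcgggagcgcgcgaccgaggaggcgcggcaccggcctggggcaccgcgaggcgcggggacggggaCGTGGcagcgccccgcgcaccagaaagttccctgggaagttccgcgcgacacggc

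The Kdelr3 window held 4 matches to CCACG and the Kdelr1 window 0, and 31.6% of 33469 promoter windows of the same length held at least 1. Windows with as many matches, or with a similar GC content, were not counted separately. GACGTGG, the core of the unfolded protein response element, matched 3 times in the Kdelr3 window, each time overlapping a CCACG match, and 0 times in the Kdelr1 window, and 2.32% of all windows held it. TGACG, the core of the cyclic AMP response element, had 1 match in the Kdelr3 window and 0 in the Kdelr1 window, and 21.2% of all windows held it. That match also overlaps a CCACG match. The complete ER stress response elements ERSE and ERSE-II and the complete cyclic AMP response element TGACGTCA were in neither window, and were in 0.0657%, 0.0508% and 1.83% of all windows, respectively. Both strands were searched. GC content was 64.3% for Kdelr1 and 75.3% for Kdelr3, and a match is a description of these letters, not a bound site.

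Array medians lay between 8.10 and 8.16 (log2 signal), no 2 arrays were identical, and the median correlation was 0.995 between arrays of a line and 0.991 between lines of a group. The 7 hepatocyte and hepatoma markers ranked at the 89.2nd to 99.9th percentile of probe sets by mean signal, and the 6 markers of other liver cells (leukocytes, macrophages, endothelium, fibroblasts, bile duct, stellate cells) at the 8.90th to 50.6th. The rat Sar1a probe set averaged 11.39 in control lines and 13.10 in the Sar1A line (log2 difference 1.72, adjusted p = 0.043), but it was also 1.49 higher in the Sar1B:H79G lines (adjusted p = 0.0058), and the rat Sar1b probe set did not pass in Sar1B lines (-0.09, adjusted p = 0.45) or Sar1B:H79G lines (-0.19, adjusted p = 0.13). The human constructs were therefore not directly checked by these probe sets. The paper screened clones for recombinant protein with an anti-FLAG antibody. It also reports more Sar1a mRNA and protein in Sar1B:H79G than in control cells, so endogenous Sar1a differs between these lines as well. All control arrays belong to array series 1 and all others to array series 2, so an effect of the array series cannot be told apart from that of carrying any Sar1 construct. The mean 5′ minus 3′ difference of the spike-in RNAs was -1.90 in control lines and -1.13 in the others, and that of β-actin was -0.88 in control, -0.61 in Sar1A, -0.50 in Sar1B and -0.67 in Sar1B:H79G lines. Sar1B:H79G, Sar1B and Sar1A arrays all lie within array series 2, so contrasts among them are free of this split. The paper reports that recombinant Sar1 protein was most abundant in Sar1A lines, then Sar1B:H79G lines, then Sar1B lines. The form of Sar1 and its amount therefore cannot be told apart in these contrasts.

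Kdelr3, the paralog with the largest response, stood apart in both Sar1B:H79G lines. Its line means (log2 signal) were 7.94 and 8.28 in the control lines, 8.30 in the Sar1A line, 8.09 and 8.45 in the Sar1B lines, and 10.27 and 11.11 in the Sar1B:H79G lines. The lowest of the 8 Sar1B:H79G arrays read 10.16, whereas the highest of the 17 other arrays, from a Sar1B line, read 8.57, so the arrays did not overlap. Among the 5 lines without Sar1B:H79G the order was Sar1B 2, Sar1A, control 2, Sar1B 1 and control 1, with overlapping arrays between every pair of neighbours except control 2 and Sar1B 1.

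Kdelr3 was 5.98-fold higher in Sar1B:H79G lines than in control lines (log2 difference 2.58 ± 0.28 (S.E.), 95% interval 1.89 to 3.27, adjusted p = 0.0033, n = 2 and 2), the 17th largest difference of the 31042 probe sets. Its control mean (8.11) was close to the median over probe sets (8.13), whereas those of Kdelr1 and Kdelr2 were both 12.31. How much of the Kdelr3 control signal is background is unknown, so the fold is uncertain. Whether more cells carried Kdelr3 RNA or each cell carried more cannot be told apart in such bulk cultures. The gene was 5.36-fold higher than in Sar1B lines (2.42 ± 0.28, adjusted p = 0.0069) and 5.26-fold higher than in the Sar1A line (2.40 ± 0.35, adjusted p = 0.027). The call against Sar1A was lost when either control line was left out (adjusted p = 0.088 each), although the difference stayed at 2.40. Kdelr3 did not pass in Sar1B against control (0.16, 95% interval -0.53 to 0.85) or Sar1A against control (0.18, -0.66 to 1.03).

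**Figure D1:**
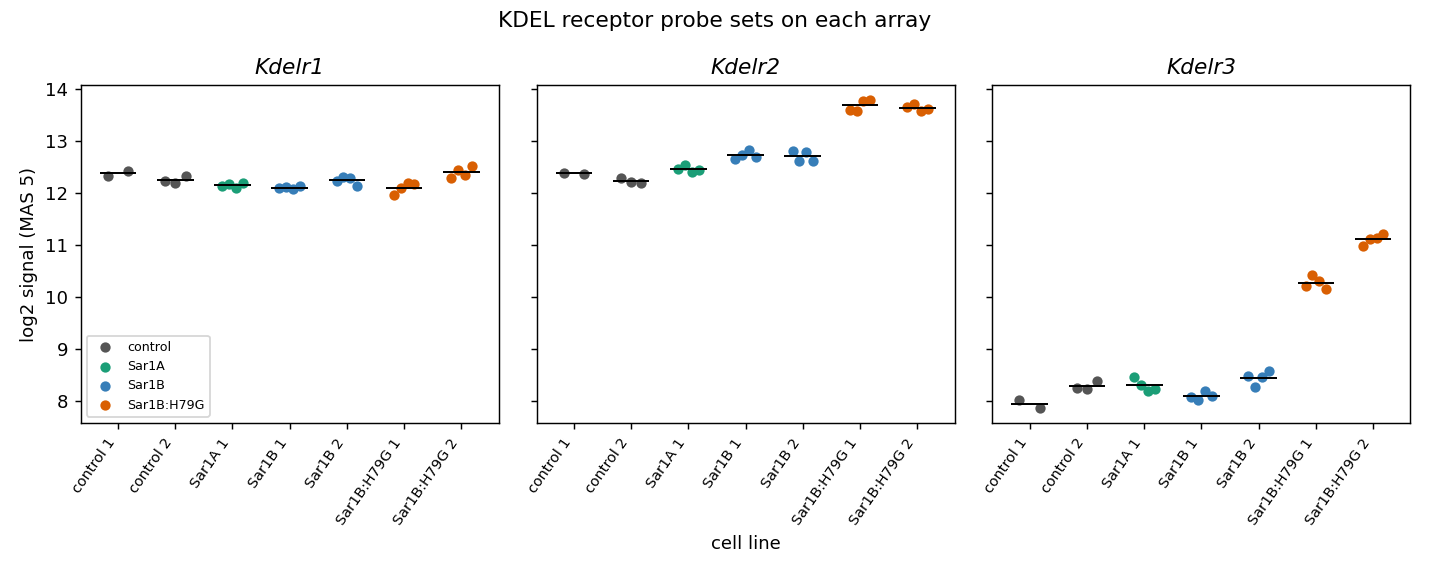
Log2 signal (MAS 5, vertical axis) of Kdelr1, Kdelr2 and Kdelr3 on each of 25 arrays, by cell line (horizontal axis); points are arrays and horizontal bars line means. Kdelr3 and Kdelr2 arrays of both Sar1B:H79G lines lie above all other arrays, whereas the Kdelr1 arrays of those lines (11.95 to 12.51) span the arrays of every other group.

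Kdelr2 was also higher in Sar1B:H79G lines, by less than Kdelr3 but with little difference between clones. Its line means were 12.38 and 12.23 in the control lines, 12.46 in the Sar1A line, 12.73 and 12.70 in the Sar1B lines, and 13.68 and 13.64 in the Sar1B:H79G lines. Arrays of the Sar1B:H79G lines spanned 13.57 to 13.78 and those of the Sar1B lines 12.61 to 12.82, while the Sar1A arrays reached 12.53 and the control arrays 12.39. Arrays of Sar1B:H79G lines lay above those of Sar1B lines, and these above the Sar1A and control arrays. Sar1A and control were barely separate, with 12.398 as the lowest Sar1A array and 12.393 as the highest control array. Their line means lay 0.15 apart, which did not pass the test (adjusted p = 0.35), and quantile normalization turned this difference to -0.057. The share of all probe sets whose arrays separate in this way was not counted.

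Kdelr2 was 2.56-fold higher in Sar1B:H79G than in control lines (1.36 ± 0.073, 95% interval 1.18 to 1.53, adjusted p = 9.0e-04), 1.93-fold higher than in Sar1B lines (0.95 ± 0.073, adjusted p = 0.0028) and 2.30-fold higher than in the Sar1A line (1.20 ± 0.089, adjusted p = 0.0075). It was the only receptor called between native Sar1B and control lines, at 1.33-fold (0.41 ± 0.073, 95% interval 0.23 to 0.59, adjusted p = 0.029). That call was lost with quantile normalization (0.25, adjusted p = 0.072), with the trend and robust options (adjusted p = 0.059), and without control line 2 (adjusted p = 0.15), Sar1B line 1 (adjusted p = 0.11) or Sar1B line 2 (adjusted p = 0.11). Kdelr2 was 0.26 lower in the Sar1A line than in Sar1B lines, with an unadjusted p of 0.027 and an adjusted p of 0.66 by limma.

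Kdelr1, the paralog first described as the mammalian retrieval receptor, did not pass the test in any of the 6 comparisons. Its line means were 12.38 and 12.25 in the control lines, 12.14 in the Sar1A line, 12.10 and 12.24 in the Sar1B lines, and 12.10 and 12.40 in the Sar1B:H79G lines. The Sar1B:H79G lines were therefore both the lowest and the highest of the 7, and their arrays (11.95 to 12.51) spanned those of the other 3 groups (12.07 to 12.42). The log2 difference was -0.06 between Sar1B:H79G and control (95% interval -0.35 to 0.22, adjusted p = 0.71) and 0.07 between Sar1B:H79G and Sar1B (-0.21 to 0.36, adjusted p = 0.83). These intervals leave out a change as large as that of Kdelr2 or Kdelr3, but not a small change within their limits.

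Counted over the receptors, 2 of 3 were called higher in Sar1B:H79G against control, where 13.2% of all probe sets were called higher and 22.3% in either direction. Against Sar1B the count was 2 of 3, beside 3.34% called higher and 8.63% in either direction, and against Sar1A 2 of 3, beside 1.33% and 2.96%. Between Sar1B and control 1 of 3 was called higher, beside 6.28% and 8.29%. Under a threshold of 0.01, 2 of 3 stayed called in Sar1B:H79G against control and against Sar1B, where 6.75% and 2.54% of all probe sets were called. By limma, 0 of 3 were called in Sar1A against control, where 0 had an unadjusted p under 0.05 and 0.995% of all probe sets were called higher (1.18% in either direction). In Sar1A against Sar1B 0 of 3 were called and 1 had an unadjusted p under 0.05, beside 0.00322% of all probe sets called. With each array taken as a replicate, which treats arrays of a clone as independent, 1 of 3 was called in each of these last 2 comparisons, in both cases Kdelr2. The comparisons with control share the same 2 control lines.

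**Figure D2:**
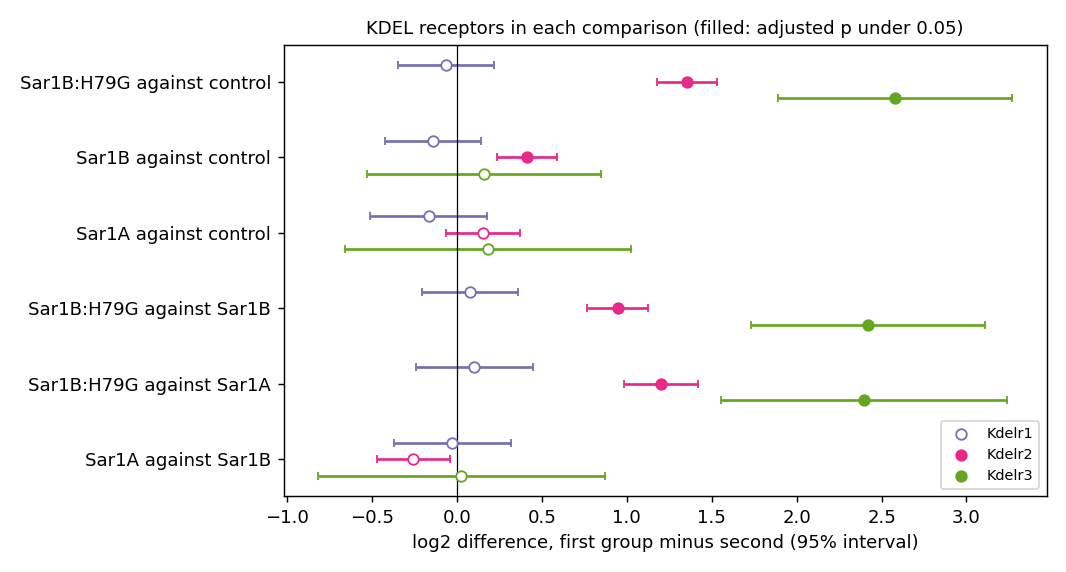
Log2 difference between groups (horizontal axis, first group minus second, 95% interval as bars) for the 3 KDEL receptors in 6 comparisons (vertical axis); filled points have an adjusted p under 0.05. Kdelr3 (2.58) and Kdelr2 (1.36) are to the right of 0 in Sar1B:H79G against control, and the Kdelr1 interval spans 0 in every comparison.

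The paralogs were then compared with each other within each line, which asks whether they moved by the same amount. Relative to the mean of the control lines, the gap between Kdelr3 and Kdelr1 (log2) was -0.24 and 0.24 in the control lines, 0.35 in the Sar1A line, 0.19 and 0.40 in the Sar1B lines, and 2.37 and 2.91 in the Sar1B:H79G lines. Both Sar1B:H79G lines exceeded all 5 other lines. The mean gap was 2.64 larger than in control lines and 2.35 larger than in Sar1B lines (two-sided exact permutation p = 0.333 each, the smallest that 2 against 2 lines allow), and 2.45 larger than in all 5 other lines (exact p = 0.0476, the smallest that 2 against 5 allow, 0.143 when adjusted over the 6 gap tests).

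In both Sar1B:H79G lines Kdelr3 also lay further above control than Kdelr2 did, but no gap test passed after adjustment. Kdelr2 was brighter (control mean 12.31, against 8.11 for Kdelr3), and whether the 2 probe sets scale alike was not tested. Relative to the mean of the control lines, the gap between them was -0.24 and 0.24 in the control lines, 0.03 in the Sar1A line, -0.44 and -0.07 in the Sar1B lines, and 0.78 and 1.66 in the Sar1B:H79G lines. Again both Sar1B:H79G lines were above the rest. The gap was 1.22 larger than in control and 1.48 larger than in Sar1B lines (exact permutation p = 0.333 each), and 1.32 larger than in the 5 other lines (exact p = 0.0476, adjusted 0.143). Over the 7 line means, the Pearson correlation was 0.93 between Kdelr2 and Kdelr3, 0.20 between Kdelr1 and Kdelr3, and -0.026 between Kdelr1 and Kdelr2. These lines share 2 array series, and the correlations are given as a description.

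**Figure D3:**
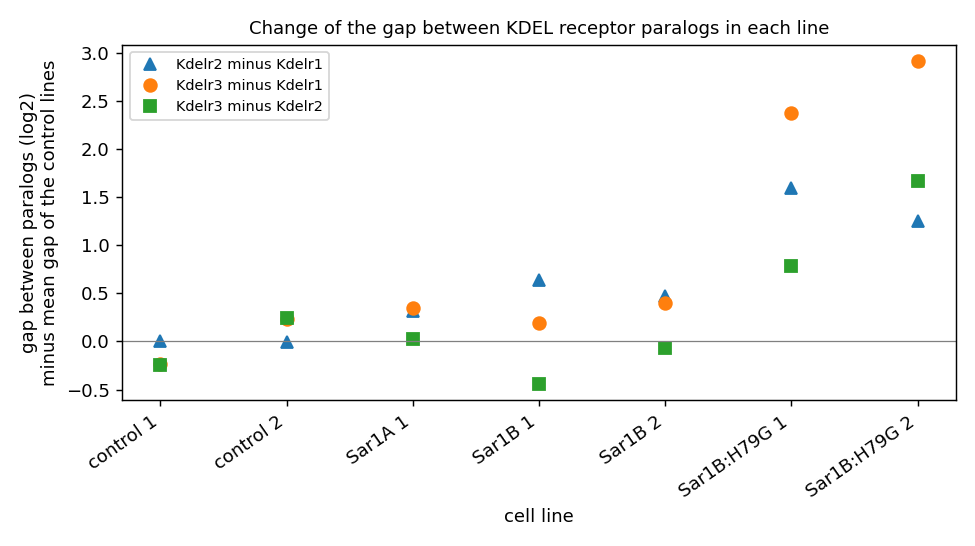
Gap between the log2 signals of a pair of KDEL receptor paralogs in each of the 7 lines (horizontal axis), after subtracting the mean gap of the control lines (vertical axis, log2); each symbol is a pair. The gap of Kdelr3 to Kdelr1 is 2.37 and 2.91 in the Sar1B:H79G lines and at most 0.40 elsewhere.

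The 2 Sar1B:H79G clones differed in Kdelr3. The second clone was 0.84 (log2) higher than the first, a gap larger than that of 99.7% of probe sets between these clones, whose median size was 0.085, and their arrays did not overlap (10.16 to 10.41 and 10.98 to 11.21). Kdelr3 also differed between the control clones (0.34, above 96.1% of probe sets) and between the Sar1B clones (0.35, above 94.8%). By contrast Kdelr2 differed by -0.04 between the Sar1B:H79G clones, and Kdelr1 by 0.30, above 90.0% of probe sets. With the first Sar1B:H79G clone alone Kdelr3 was 2.16 above control, and with the second alone 2.999.

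The machinery of Golgi-to-ER retrieval (COPI coat subunits, Arf GTPases and their regulators, tethers and SNAREs) was mostly higher in Sar1B:H79G lines. Of 27 genes, 16 rose and 1 fell against control (median 0.57, against 0.02 over all genes), where 13.2% of all probe sets were called higher and 9.17% lower. Arf4, a small GTPase of the early secretory pathway, rose by 1.73 (adjusted p = 9.9e-04), Copg1, the γ subunit of the COPI coat, by 1.66 (adjusted p = 9.3e-04), and Sec22b, a SNARE of ER-Golgi vesicles, by 1.47 (adjusted p = 9.0e-04). The gene that fell, named after its value was seen, was Arfgap2 (-0.77, adjusted p = 0.0076), which stimulates GTP hydrolysis by Arf1 on COPI vesicles.

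Sec22b had line means of 10.70 and 10.75 in control, 10.69 in Sar1A, 10.77 and 10.67 in Sar1B, and 12.18 and 12.21 in Sar1B:H79G lines. Not every gene was as level outside Sar1B:H79G. Copg1 read 10.80 and 10.71 in control, 10.95 in Sar1A and 11.07 and 11.31 in Sar1B lines. Its means were 12.39 and 12.44 in Sar1B:H79G lines. Over the list, the median in Sar1B against control was 0.17, against 0.03 over all genes. With quantile normalization this median was 0.045, and 1 gene was called higher and 1 lower. Within array series 2, 12 of 27 rose and 1 fell against Sar1B (median 0.39), beside 3.34% and 5.29% of all probe sets, and 12 rose and 0 fell against Sar1A (median 0.48), beside 1.33% and 1.63%. In Sar1B against control 4 rose and 0 fell, beside 6.28% and 2.01%, and 0 of these calls were left without either control line or either Sar1B line. In the Sar1A line relative to control 0 of 27 were called by limma, and 7 had an unadjusted p under 0.05.

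The cargo of the receptors was taken as a list of ER proteins known for a KDEL-type tail, drawn up from background knowledge, and the tails were not read from sequence here. The list held 36 symbols, some of them older names of genes also listed. Of the 31 genes measured, 9 rose and 0 fell against control, where 13.2% of all probe sets were called higher and 9.17% lower, and 22 did not pass. The median was 0.07, against 0.02 over all genes. Poglut2, an O-glucosyltransferase of the ER, was 1.27 higher (adjusted p = 0.0018), Hspa5, the ER chaperone BiP, 1.00 higher (adjusted p = 0.0031), and Rcn1, an ER calcium-binding protein, 0.79 higher (adjusted p = 0.0013). The line means of Hspa5 were 12.90 and 12.69 in control, 13.28 in Sar1A, 12.96 and 13.14 in Sar1B, and 13.85 and 13.74 in Sar1B:H79G lines. Poglut2 was also higher in Sar1B (1.13, adjusted p = 0.011) and in Sar1A (1.03, adjusted p = 0.039) than in control lines, and it differed by 0.14 between Sar1B:H79G and Sar1B (adjusted p = 0.59). Calr, the lectin chaperone calreticulin, differed by 0.07 (adjusted p = 0.61) and Pdia4, a disulfide isomerase, by -0.50 (adjusted p = 0.19), both named after their values were seen.

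Against Sar1B lines, 4 of the 31 rose and 1 fell, beside 3.34% and 5.29% of all probe sets, with a median of -0.01. The count higher was 2 without Sar1B line 2 or the second Sar1B:H79G clone and 7 without the first. The count against control was 3 without control line 2 and 4 without the second Sar1B:H79G clone, and with quantile normalization 5 rose and 3 fell with a median of -0.07. Relative to control, the median over the list was -0.02 in the first Sar1B:H79G clone and 0.20 in the second, and 23 of 31 genes were higher in the second, where 51.1% of all 14217 genes were. The same count was 16 of 27 for the retrieval machinery, 11 of 18 for ER stress and 6 of 7 for the hepatocyte and hepatoma markers.

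Most of the listed ER stress genes were higher in Sar1B:H79G lines, as were Kdelr2 and Kdelr3. Of 18 measured (20 listed), 14 rose and 0 fell in Sar1B:H79G against control (median 0.94), beside 13.2% of all probe sets called higher, and 11 rose and 0 fell against Sar1B (median 0.81), beside 3.34%. Ddit3, which encodes the transcription factor CHOP, rose by 3.04 (adjusted p = 0.0015), Atf3, a stress-induced transcription factor, by 2.71 (adjusted p = 0.0012), and Ppp1r15a, a subunit that directs the dephosphorylation of eIF2α, by 2.49 (adjusted p = 9.0e-04). Against Sar1A 8 rose and 0 fell, beside 1.33% called higher, while relative to control 1 was called in the Sar1B lines and 0 in the Sar1A line by limma, where 3 had an unadjusted p under 0.05. The list's median above control was 0.96 in the first Sar1B:H79G clone and 0.92 in the second. Xbp1 gave -0.09 (adjusted p = 0.73, named after its value was seen), and these probe sets do not measure its splicing. The others not called against control, also named after their values were seen, were Dnajb11, Dnajc3 and Edem1 (adjusted p = 0.12, 0.18 and 0.076 by limma). Whether the rises on this list are specific to ER stress was not tested. Of the hepatocyte and hepatoma markers, 3 of 7 fell in Sar1B:H79G against control, beside 9.17% of all probe sets called lower, namely Apob (-1.41, adjusted p = 0.035), Hnf4a (-0.78, adjusted p = 0.0025) and Serpina1 (-0.64, adjusted p = 0.035), and 0 of 6 markers of other cells were called by limma (0 at an unadjusted p under 0.05), with 0.16 for Cd68 (adjusted p = 0.20), -0.18 for Pecam1 (adjusted p = 0.14) and 0.07 for Des (adjusted p = 0.49). The part of this shift in the receptor results was not tested.

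**Figure D4:**
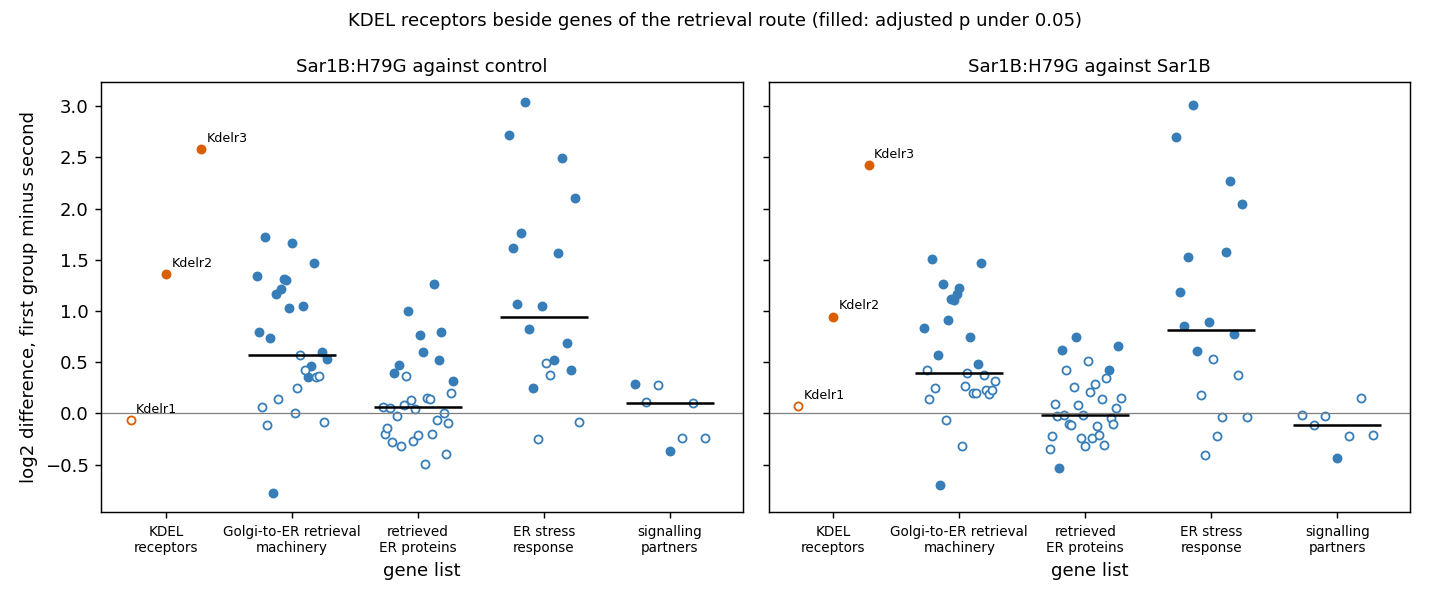
Log2 difference of each gene (vertical axis) in Sar1B:H79G against control (left) and against Sar1B (right), by gene list (horizontal axis); filled points have an adjusted p under 0.05 and bars are list medians. Most genes of the retrieval machinery (median 0.57) and ER stress (0.94) lists lie above 0 against control, and retrieved ER proteins (0.07) spread around it.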

How the data were processed

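The authors hybridised RNA to Affymetrix rat genome arrays and deposited log2 signals after loess normalization and MAS 5 summarization in CARMAweb (the version is not given in the sources used here, and base 2 was inferred from the range). The deposited log2 values carry no detection calls, so signal over background is unknown, and the number of lines limits the precision. Values were used as deposited, without a filter on dim probe sets, after removal of 57 array control probe sets. Of 31042 probe sets, 20826 had 1 gene symbol, 436 several and 9780 none, and the brightest probe set stood for a listed gene. Columns were assigned to samples by their labels.

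Arrays were averaged per line, and limma 3.58.1 in R 4.3.3 was fitted to all 7 line means with a coefficient per group, leaving 3 residual and 3.16 prior degrees of freedom. P-values were adjusted over all probe sets (Benjamini-Hochberg, called under 0.05). The lone Sar1A line is assumed to vary like the others, and p-values measure the spread between clones. Gaps between paralogs were compared by two-sided exact permutation of lines. The fit was tested on simulated line means without an array series effect, so that test does not address the split between control and other arrays. SAM, which the methods name, was not run, and the fit on single arrays stands in for it.

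The receptors and the gene lists were chosen with earlier results of these data known, and no list was tested as a set. Genes named are the 3 receptors, the 5 genes most correlated with each, and the 3 genes of each list with the largest difference in Sar1B:H79G against control. Sar1a and Sar1b were named in addition as the check of the constructs. Arfgap2, Calr, Pdia4, Xbp1, Dnajb11, Dnajc3 and Edem1 were named after their values were seen. Alternatives were single arrays, a random block, quantile and median scaling, a signal filter, fits of the compared groups, trend and robust options, a replicate block, leaving out each line, the mean over probe sets and a threshold of 0.01, and those for paralog gaps and gene lists were added after seeing the data.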

Additional observations from a re-analysis of the deposited data

How the results depend on the processing

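Kdelr3 and Kdelr2 stayed called in Sar1B:H79G against control and against Sar1B under all 15 alternatives run for each difference. Some of these could change only the adjusted p and not the difference. Examples are leaving out a line of a group not compared, and the mean over probe sets, as each receptor has only 1. Against control Kdelr3 ranged from 2.16 to 2.999 (highest adjusted p = 0.036) and Kdelr2 from 1.08 to 1.43 (0.016), and against Sar1B Kdelr3 ranged from 2.00 to 2.84 (0.031) and Kdelr2 from 0.83 to 0.97 (0.015). The number of receptors called in Sar1B against control went from 1 to 0 with quantile normalization, with trend and robust options and under 0.01, and lay between 0 and 1 when a line was left out. In Sar1B:H79G against Sar1A it went from 2 to 1 under 0.01 and lay between 1 and 2 when a line was left out. With each array as a replicate it went from 0 to 1 in Sar1A against control and in Sar1A against Sar1B. The cause of these changes was not tested. The differences that changed sign were called under no alternative, apart from Kdelr2 between Sar1A and control with each array as a replicate (0.17, adjusted p = 0.027). Kdelr2 in Sar1A against control turned to -0.057 with quantile normalization. With a line left out, Kdelr3 ranged from -0.018 (without Sar1B line 2) to 0.33 in Sar1B against control, and was also below 0 without control line 1 (-0.014), and from -0.15 (without Sar1B line 1) to 0.20 in Sar1A against Sar1B. Kdelr1 ranged from -0.098 to 0.043 (without Sar1B line 2) in Sar1A against Sar1B. With a line left out, it also ranged from -0.21 to 0.084 (without clone 1) between Sar1B:H79G and control. The ranges were -0.074 (without clone 2) to 0.22 between Sar1B:H79G and Sar1B, and -0.046 (without clone 2) to 0.25 between Sar1B:H79G and Sar1A. Over all alternatives, the lowest Kdelr1 difference from control was -0.29 in Sar1B:H79G lines, -0.31 in Sar1B lines and -0.35 in the Sar1A line, called under none.

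The line numbers are only numbers, and deviations of same-numbered lines correlated at 0.0071, 0.19 and 0.075. With the line number as a replicate block, 2 receptors passed between Sar1B:H79G and control, 1 between Sar1B and control (Kdelr2, adjusted p = 0.040) and 2 between Sar1B:H79G and Sar1B. Among the gene lists, the number called higher in Sar1B:H79G against control ranged over the alternatives from 3 (without control line 2) to 11 (each array as a replicate) for the retrieved ER proteins, from 13 to 22 for the retrieval machinery and from 10 to 16 for ER stress. Against Sar1B these ranges were 0 (under 0.01) to 11, 10 to 23 and 9 to 14, and for Sar1B relative to control 0 to 11, 0 to 16 and 0 to 7. The number called lower reached 8 for the retrieved ER proteins in Sar1B:H79G against control (each array as a replicate, and 6 with the line as a random block) and 7 against Sar1B, and at most 2 for the machinery and ER stress. No array of any receptor stood apart in the 12 combinations of gene and group tested. Arrays were pooled over the clones of a group there, so an outlying array within a clone could go unseen where clones differed, as for Kdelr3.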

Other observations

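KDEL receptors can also signal through G proteins and protein kinase A, and 7 genes of that route were measured. In Sar1B:H79G against control 1 was called higher and 1 lower, beside 22.3% of all probe sets called in either direction. Their median was 0.10, but -0.13 with quantile normalization, -0.0019 without control line 2 and -0.07 for the 6 genes above the median probe set. Gna11, a Gq-class α subunit, was 0.29 higher on the log2 scale (adjusted p = 0.043), Prkaca, the catalytic α subunit of protein kinase A, gave -0.37 (adjusted p = 0.043), and Gnas, the Gs α subunit, differed by 0.28 (adjusted p = 0.20). Across the alternatives the adjusted p reached 0.16 for Gna11 and 0.15 for Prkaca, and both calls were lost without control line 2.

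The genes whose line means were most correlated with each receptor were searched among 9431 genes above the median probe set, over 7 lines that share 2 array series. For Kdelr2 they were Bmal1 (r = 0.997), Copa (0.996), Ccdc47 (0.995), Cenpk (0.994) and Casp4 (0.993), and Copa encodes the α subunit of the COPI coat. For Kdelr3 they were Zc3h10 (0.999), Dph5 (0.994), Lsm8 (0.994), Ppp1r11 (0.993) and Lto1 (0.992). For Kdelr1 they were Saal1 (0.973), Pet100 (0.969), Smc2 (0.949), Lats1 (0.940) and Apoo (0.929). With 7 lines and this many genes searched, such values are a description.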
